A study of Bos taurus with 72 samples.

Results

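Arginine and lysine, the cationic essential amino acids (EAA) of the series, were compared with each other in bovine mammary epithelial cells (BMECs). Of the 72 RNA-seq libraries, 12 belong to this comparison by their treatment labels, namely Arg_1 to Arg_6 and Lys_1 to Lys_6. The main comparison left out Arg_4 and Lys_1 and held 10 libraries, and the counts of genes, the named genes, the library measures and the overall positions of the controls were repeated with all 12. BMECs are cells isolated from mammary tissue of dairy cows, genotype WT by the labels, and were used at 6 passages. They were serum-starved overnight and then kept for 6 h in 1 of 12 media with 6 replicates each. NEG was DMEM-F12 without any EAA, POS was the complete medium, Arg was NEG with arginine returned to its level in POS, and Lys was NEG with lysine returned in the same way. Arg and Lys cells thus shared the lack of the other EAA, while POS cells had all of them. The complete medium holds more arginine than lysine, so the compound and its concentration cannot be told apart. The labels and the paper name different library kits and culture plates, for all libraries alike. The paper calls the replicates biological, but no source used here says that they came from separate animals, so p-values measure the spread between these libraries, which may be technical. In bulk RNA, fewer cells of a type and less RNA per cell cannot be told apart.

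Arginine and lysine both carry a positive charge at physiological pH and compete for the same cationic amino acid transporters in the plasma membrane. Beyond protein synthesis their fates differ. Arginine feeds nitric oxide, urea, ornithine, polyamines and proline, is taken up by the lactating gland in excess of its output in milk protein, and is sensed by CASTOR1 upstream of mTORC1. Lysine is used mainly for protein and is degraded through saccharopine, and it is among the EAA that most often limit milk protein in dairy diets.

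The values are FPKM, reads on a gene divided by its length and by a factor of the library. The deposited table holds 29550 genes, of which 27570 carry Ensembl identifiers and 1980 carry running names. The files do not pair identifiers with gene names, so genes are described by identifier, and transporters, arginine and lysine enzymes or epithelial markers could not be picked out. Reads on genes ranged from 15057691 to 17345703 in the 10 main libraries, from 15907875 to 17910729 in NEG and from 13575490 to 17234153 in POS. Within Lys the libraries were alike, with r² of log2(FPKM + 1) between 0.962 and 0.977 among Lys_2 to Lys_6 over the 12121 genes tested, those whose FPKM averaged 1 or more across the 72 libraries. Arg_4 stood apart, with 12803111 reads and 11838 genes above 0 where the other Arg libraries had 16150 to 17403, and its r² with the other libraries of both groups was 0.601 to 0.711. Lys_1 was as near to Arg_1 and Arg_2 (r² 0.955 and 0.948) as to the other Lys libraries (0.923 to 0.957). The Arg libraries were also split. Arg_1 and Arg_2 had an r² of 0.967 with each other, Arg_3, Arg_5 and Arg_6 had 0.977 to 0.982, and pairs across had only 0.921 to 0.929, below every pair of Arg_3, Arg_5 or Arg_6 with Lys_2 to Lys_6 (0.940 to 0.958). In NEG and POS, NEG_2 and POS_4 had the lowest mean r² with their replicates, 0.909 and 0.655.

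In PCA of the 10 main libraries, the largest component held 36.0% of the variance and separated Arg_1 and Arg_2 (scores −32.6 and −33.4) from Arg_3, Arg_5 and Arg_6 (13.9 to 17.0), with Lys between −9.05 and 13.0. Arg and Lys came apart on PC2, which held 25.4%, with Arg at −21.0 to −6.95 and Lys at 13.6 to 16.0. The component on which the amino acids separated thus held less variance than the one that divided Arg. The share of variance between the groups was not a planned test, and the main libraries were chosen with earlier results of these data known. The difference between the groups held 25.6% of the total variance, more than in the other splits of these libraries 5 against 5 except its mirror image (one-sided exact permutation test, p = 0.00794, the smallest p this design allows). With all 12 libraries it held 12.1% (exact permutation test, p = 0.145), PC1 with 64.7% set Arg_4 apart at −122, PC2 with 11.6% set Lys_1, Arg_1 and Arg_2 (−31.0 to −20.9) apart from the others, and Arg and Lys separated only on PC3 with 8.78%.

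**Figure D1:**
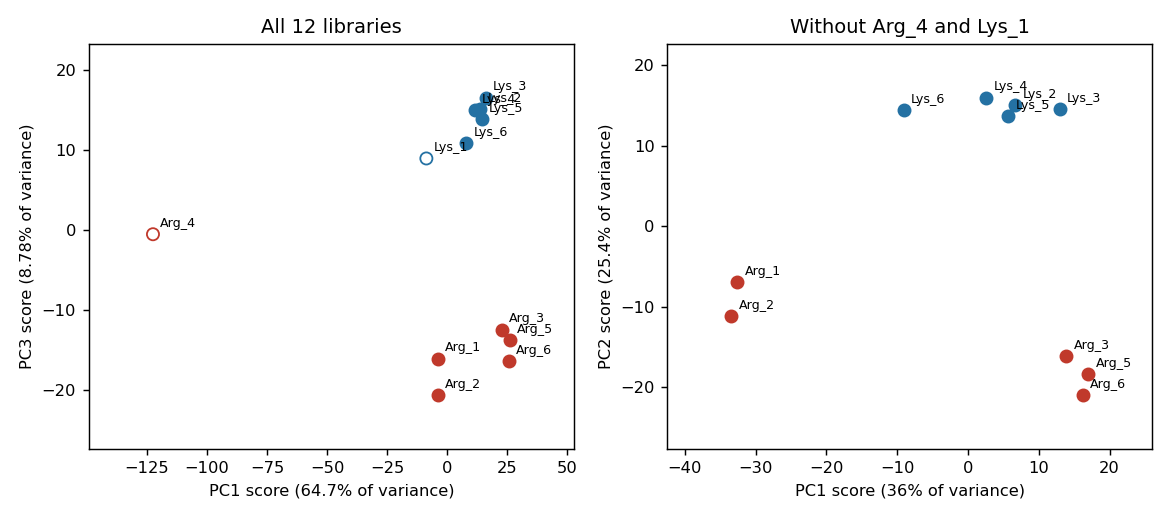
PCA scores of the Arg (red) and Lys (blue) libraries on log2(FPKM + 1) of the 12121 tested genes, with PC1 against PC3 for all 12 libraries at the left and PC1 against PC2 for the 10 main libraries at the right, and open circles for Arg_4 and Lys_1. Arg_4 lies alone at −122 on PC1 at the left, and at the right Arg_1 and Arg_2 lie apart from the other Arg libraries along PC1 while Arg and Lys separate along PC2.

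No difference in depth larger than the spread between libraries was detected in the main comparison. Reads on genes averaged 16792869 ± 327991 in Arg and 16222428 ± 941214 in Lys (SD, n = 5 each, two-sided exact permutation test, p = 0.317, adjusted 0.476). Genes above 0 averaged 16979 ± 543 in Arg and 17031 ± 90.0 in Lys (exact p = 0.873). With all 12 libraries they averaged 16122 ± 2154 and 16975 ± 160 (SD, n = 6 each, exact permutation test, p = 0.496), and reads on genes 16127909 and 16113832 (exact permutation test, p = 0.994). The 100 highest genes held 31.4% ± 1.05 of the FPKM in Arg and 29.9% ± 0.26 in Lys, a difference of 1.41 percentage points (exact permutation test, p = 0.0397, and 0.119 after Benjamini-Hochberg adjustment over the 3 measures), and the groups overlapped because Arg_1 had 29.8%.

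Of the 12121 genes tested, 1715 differed between Arg and Lys at a Benjamini-Hochberg adjusted p under 0.05 by limma on log2(FPKM + 1), or 14.1%. Expression was higher in Arg for 806 of them (6.65% of the tested genes) and lower for 909 (7.5%). Most differences were small. The median size was 0.42 on the log2 scale (1.34-fold), against 0.16 over all tested genes, 350 genes exceeded 1.5-fold, and 47 exceeded 2-fold, 7 of them higher and 40 lower in Arg. FPKM ranges of the 5 Arg and the 5 Lys libraries did not overlap in 1663 genes (13.7% of the tested genes), 1418 of which were among the 1715. With all 12 libraries the ranges did not overlap in 645 genes, 584 of which were among the 1715. Higher and lower genes were in near balance on the deposited scale, where 47.0% of the calls were higher in Arg. With libraries scaled by total reads the split was 1154 higher and 693 lower, or 62.5% higher, so which direction holds the majority depends on the scaling.

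Which libraries were kept and how they were weighted moved these counts. With all 12 libraries, 390 genes passed (3.22%), 145 higher and 245 lower in Arg, and all 390 were among the 1715. Of the 1715, 1665 had the same direction with all 12 libraries. Of the libraries left out, Arg_4 moved the number more than Lys_1, since 345 genes passed when Lys_1 was left out and Arg_4 kept, and 1702 when Arg_4 was left out and Lys_1 kept. With sample weights on all 12 libraries 5191 genes passed (2946 higher and 2245 lower in Arg), and in 1 fit of all 12 treatments 691 did (275 higher and 416 lower). From the main comparison, leaving out Lys_2 took the number to 1110 and leaving out Lys_4 to 1131. Either subset of the Arg libraries taken alone gave more genes. Lys_2 to Lys_6 against Arg_3, Arg_5 and Arg_6 alone gave 4651 genes (2659 higher in Arg), and against Arg_1 and Arg_2 alone 4829 genes (2100 higher), both fits chosen after the likeness of the libraries was seen. Of the 1715 genes, 1288 (560 higher and 728 lower in Arg) passed in both of these fits, which use the same libraries as the main comparison and are no independent check of it.

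The calls were spread over the range of expression, with a larger share among genes of high level. At a mean FPKM of 1 to 5, 7.99% of the tested genes were called, and 60.7% of these calls were higher in Arg. From 5 to 20 the share called was 14.3%, with 52.4% higher in Arg. From 20 to 100 it was 18.7%, with 35.8% higher, and at 100 or more it was 22.5%, with 41.0% higher. Genes lower in Arg thus tended to be more highly expressed than genes higher in Arg, with medians of 21.5 and 12.1 in mean FPKM, and rested on more reads (medians of 1056 and 460.5 reads per library). Genes with running names were called less often than genes with Ensembl identifiers (9.09% of 462 and 14.3% of 11659), a difference that was not tested. Few calls rested on zeros, as only 9 of the 909 lower genes were at 0 in a main Arg library.

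**Figure D2:**
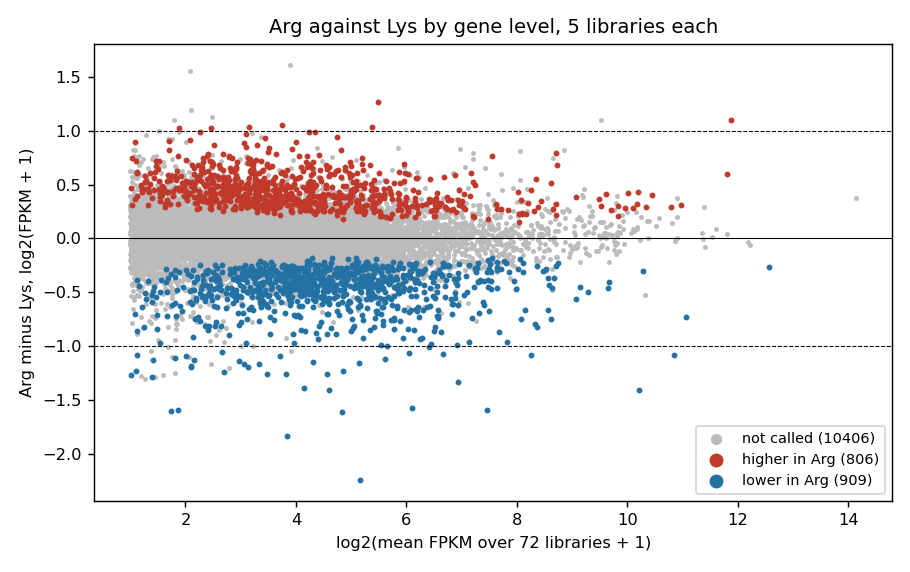
Difference between Arg and Lys in mean log2(FPKM + 1), 5 libraries each, against the log2 of the mean FPKM over 72 libraries plus 1, for 12121 tested genes, with dashed lines at a log2 difference of 1 in size. The 806 genes higher in Arg (red) and 909 lower (blue) mostly lie within the dashed lines, and more blue than red points lie beyond them.

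The study called a gene differentially expressed (DEG) by its p and its fold change, without saying whether the p was adjusted. Here, at an unadjusted p under 0.05 and a change beyond 1 on the log2 scale in either direction, 60 genes differed between Arg and Lys (0.495% of the tested genes), 11 higher and 49 lower in Arg. Of these, 7 of the 11 and 40 of the 49 also had an adjusted p under 0.05. The DEG rested on fewer reads than the 1715 genes (median of 729 reads per library), with a median of 104.5 in the 11 higher DEG and 116 in the 49 lower DEG. The mean FPKM was under 5 in 4 of the 11 and 20 of the 49, and 16 of the 49 were at 0 in at least 1 of the 5 Arg libraries. The excess of lower DEG was smaller on a scale that compresses low values less. It was 43 higher and 72 lower of 115 DEG with a pseudocount of 0.1, and 43 higher and 79 lower of 122 DEG with voom of limma on the recovered reads. With all 12 libraries 68 genes were DEG, 4 higher and 64 lower. With sample weights on all 12 libraries the split was 36 higher and 46 lower, and without Arg_1 and Arg_2 it was 34 higher and 44 lower, so the size of the excess also depends on the libraries.

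Named below by identifier are the pairs with the largest difference in each direction among the 1393 genes that had an adjusted p under 0.05, ranges that did not overlap and the same direction with all 12 libraries. ENSBTAG00000011645 had an FPKM of 74.7, 67.9, 78.7, 80.1 and 85.3 in Arg_1, Arg_2, Arg_3, Arg_5 and Arg_6. In Lys_2 to Lys_6 it had 31.6, 29.5, 31.9, 30.0 and 34.5. The lowest Arg library was thus far above the highest Lys library, in both subsets of Arg. The means were 77.3 ± 6.51 and 31.5 ± 1.97 (SD, n = 5 each), a log2 difference of 1.27 (standard error 0.07, limma adjusted p = 7.89e-06), which is 2.41-fold on that scale. Arg_4 was lower, at 38.2, and Lys_1 lay with its group at 30.5. In NEG the lowest, median and highest FPKM were 36.7, 42.5 and 71.1, the last in NEG_2, and in POS they were 34.0, 66.3 and 91.7, the first in POS_4. The NEG mean lay between Lys and Arg and nearer Lys, though NEG_2 lay inside the Arg range, and the POS mean lay nearer Arg. Among the medians of the 12 treatments Arg was the highest (76.7), POS came next, and Lys (31.0) was the second lowest, above Val (26.1).

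ENSBTAG00000014127 was the largest difference of all called genes. Its FPKM was 9.40, 10.8, 7.59, 7.69 and 7.20 in Arg_1, Arg_2, Arg_3, Arg_5 and Arg_6. In Lys_2 to Lys_6 it was 45.7, 39.3, 43.2, 44.2 and 46.4. No Arg library came near the Lys range, and Arg_4 (5.18) and Lys_1 (60.2) lay further out in the same direction. The means of 8.54 ± 1.54 and 43.8 ± 2.79 (SD, n = 5 each) gave a log2 difference of −2.24 (standard error 0.10, limma adjusted p = 2.28e-06), 4.73-fold lower in Arg on that scale. In NEG the FPKM ran from 21.8 to 32.1 with a median of 24.3, and in POS from 3.39 to 5.94 with a median of 4.64. All 6 NEG libraries lay in the gap between Arg and Lys, and all 6 POS libraries lay below NEG. Arg and POS had the lowest medians of the 12 treatments, each below 10, and the medians of the other 10 ran from 24.3 in NEG to 64.5 in Met. With lysine as the only EAA the gene was thus above NEG, and with arginine as the only EAA it was below NEG and closer to the complete medium than to NEG.

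ENSBTAG00000010069 was likewise low in Arg and POS, with NEG between Arg and Lys. The FPKM in Arg_1, Arg_2, Arg_3, Arg_5 and Arg_6 was 3.75, 5.44, 4.01, 5.96 and 4.20, and in Lys_2 to Lys_6 it was 21.7, 17.3, 21.6, 19.6 and 15.6. The lowest Lys library was above 2 times the highest Arg library. The means were 4.67 ± 0.97 and 19.2 ± 2.67 (SD, n = 5 each), the log2 difference was −1.84 (standard error 0.13, limma adjusted p = 1.21e-05), and Arg_4 (2.85) and Lys_1 (14.7) kept to the same sides. NEG ran from 9.10 to 14.6 with a median of 12.8, between Arg and Lys and overlapping neither of their main ranges, and POS ran from 2.63 to 6.68 with a median of 4.82, which overlaps Arg. Medians were lowest in Arg (4.11) and POS, and highest in Met (23.3), Lys (18.4) and Leu (18.3).

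ENSBTAG00000027213 was higher in Arg by 1.06 on the log2 scale (standard error 0.30, limma adjusted p = 0.0382) but differed inside Arg. Its FPKM was 23.7 and 32.2 in Arg_1 and Arg_2 and 11.4, 11.1 and 9.65 in Arg_3, Arg_5 and Arg_6, against 8.23, 7.26, 6.43, 5.01 and 8.88 in Lys_2 to Lys_6. The ranges did not overlap, but the gap from 8.88 to 9.65 was small. Arg_4 had 31.5 and Lys_1 had 31.7, so with all 12 libraries the groups overlapped and the call was lost (log2 difference 0.88, adjusted p = 0.358). It was also highest in NEG_2 (12.2, median of NEG 6.12) and in POS_4 (18.1, median of POS 5.84), the libraries that stood apart in those treatments. On mean log2(FPKM + 1), NEG (2.898) and POS (2.846) lay slightly beyond Lys (3.008), on the side away from Arg (4.065). In mean FPKM, POS (7.426) was slightly above Lys (7.165). Among the medians of the 12 treatments, Leu (27.7) and His (24.5) were above Arg (17.6), and Lys (7.75) was near the middle. Over the alternatives run, its adjusted p was between 0.000431 and 0.358.

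**Figure D3:**
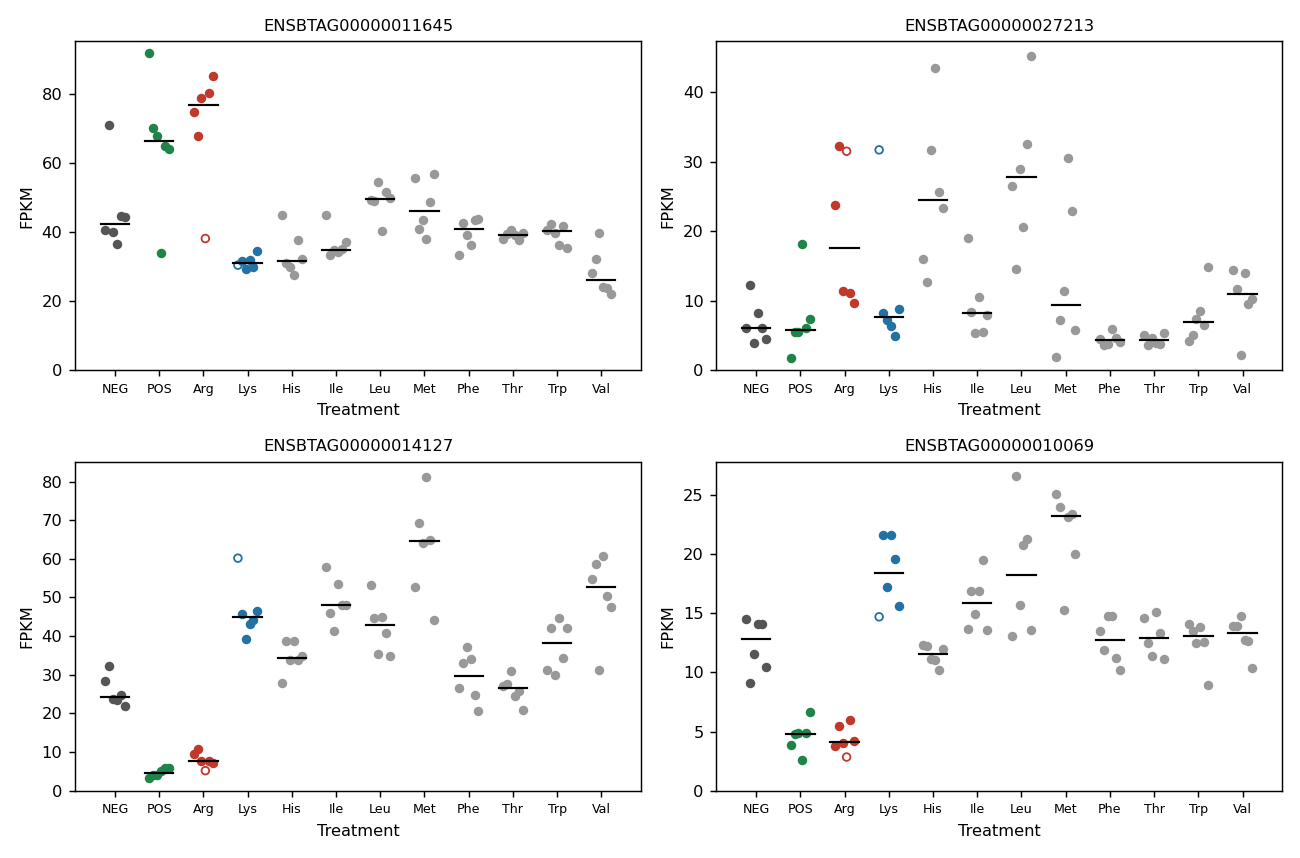
FPKM of the 4 named genes in all 72 libraries by treatment, each point a library and each bar the median of 6, with open circles for Arg_4 and Lys_1. ENSBTAG00000014127 and ENSBTAG00000010069 are low in POS and Arg and higher in the other 10 treatments, ENSBTAG00000011645 is high in POS and Arg, and ENSBTAG00000027213 varies within many treatments.

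The controls were then placed for all 1715 genes by mean log2(FPKM + 1) as beyond Arg, between the groups, or beyond Lys. The genes were chosen on the Arg and Lys values, so these shares are a description without a test. NEG lay between Arg and Lys in 985 genes (57.4%), and nearer to Lys than to Arg in 551 of these. It was beyond Arg in 384 genes (22.4%) and beyond Lys in 346 (20.2%). Over all tested genes NEG lay between in 23.9%, but there the distance from Arg to Lys was also smaller. For the 806 genes higher in Arg, the median difference from NEG was 0.22 in Arg and −0.21 in Lys on the log2 scale, and for the 909 lower genes it was −0.24 in Arg and 0.22 in Lys, where over all tested genes it was −0.03 in both. Both differences share the NEG libraries, and the genes were chosen for the distance of Arg from Lys. Positions were taken on the deposited scale only.

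POS lay on the side of Arg more often than on the side of Lys. Its mean was beyond Arg in 828 of the 1715 genes (48.3%), between and nearer Arg in 305 (17.8%), between and nearer Lys in 219 (12.8%), and beyond Lys in 363 (21.2%). Counted together, 1133 genes (66.1%) had POS on the side of Arg, where 54.3% of all tested genes did. The share was larger in the genes lower in Arg, a contrast that was not tested. Of these, 667 of 909 (73.4%) had POS on the Arg side and 531 (58.4%) had POS lower still than Arg. For the genes higher in Arg, 466 of 806 (57.8%) had POS on the Arg side. The 54.3% of all tested genes pools both directions, so it is no matched reference for either direction alone. Over all tested genes POS was below Arg in 53.4% and below Lys in 50.9%. The median of Arg minus POS on the log2 scale was 0.12 in the lower genes, 0.14 in the higher genes and 0.04 in all tested genes. For Lys minus POS the medians were 0.57, −0.295 and 0.008 in the same order. The most frequent single arrangement was NEG between and nearer Lys with POS beyond Arg, as for ENSBTAG00000014127. It held for 286 genes (16.7%, against 5.88% of all tested genes), 199 of them lower in Arg. Over all tested genes the distance from Arg to Lys was smaller, which leaves less room for NEG between. Among genes with NEG between and nearer Lys, POS lay beyond Arg in 286 of 551 differing genes and in 713 of 1503 tested genes. Among the 60 DEG, POS lay on the Arg side in 10 of the 11 higher and in 35 of the 49 lower genes, and NEG lay between in 9 and 37.

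**Figure D4:**
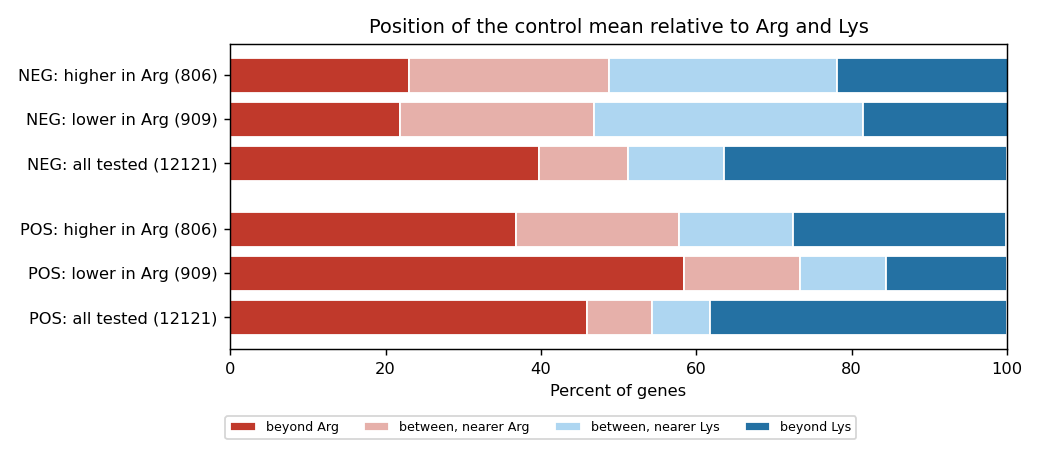
Percent of genes in which the mean of NEG (upper bars) or POS (lower bars) lay beyond Arg, between and nearer Arg, between and nearer Lys, or beyond Lys, for genes higher in Arg (806), lower in Arg (909) and all tested genes (12121). Bars for NEG are near symmetric about the midpoint of Arg and Lys, and in the bar for POS in genes lower in Arg 58.4% lies beyond Arg.

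Means hide the spread of the control libraries. The counts of ranges that follow keep NEG_2 and POS_4, while Arg_4 and Lys_1 are left out. They were not repeated without NEG_2 and POS_4, so a control range can rest on a single library. Mean r² with the replicates was 0.909 in NEG_2 and 0.964 to 0.968 in the other NEG libraries. Of the 1418 genes whose Arg and Lys ranges did not overlap, the 6 NEG libraries reached into both ranges in 212 of the 613 higher and 251 of the 805 lower genes, and lay wholly in the gap in 7 and 23. The POS range met both ranges in 302 higher and 287 lower genes. It met Arg alone in 158 and Lys alone in 72 of the higher genes, and Arg alone in 210 and Lys alone in 59 of the lower genes, and it lay outside both in 81 higher and 246 lower genes. The share of genes with NEG between Arg and Lys was 66.9% without NEG_2, and the share with POS on the Arg side was 70.9% without POS_4. On the means of Arg_3, Arg_5 and Arg_6 these shares were 58.4% and 65.4%, and on those of Arg_1 and Arg_2 they were 50.8% and 65.7%.

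POS against NEG shares no library with Arg against Lys and was set beside it, a comparison chosen after the data were seen. By limma, 3969 of the tested genes (32.7%) differed between POS and NEG at an adjusted p under 0.05. They included 710 of the 1715 genes, which is 41.4% of the genes that differed between Arg and Lys and 17.9% of those that differed between POS and NEG. The shares by direction were not tested against each other. Of the 909 genes lower in Arg, 639 (70.3%) were lower in POS than in NEG, and of the 431 that passed the test 376 were lower in POS. Of the 806 genes higher in Arg, 437 (54.2%) were higher in POS, and of the 279 that passed 193 were. Over all tested genes, 6561 were lower and 5560 higher in POS than in NEG, and the signs of the 2 differences were the same in 51.7%. Of the 3969 that passed, 2239 were lower and 1730 higher in POS, and 2412 had the same sign in both differences. Without NEG_2 and POS_4, 5847 genes differed between POS and NEG, among them 1080 of the 1715. The calls with the shared direction were 548 of 647 in the lower and 312 of 433 in the higher genes. Of all 5847 genes, 3131 were lower and 2716 higher in POS, and 3623 had the same sign in both differences. The sign was then shared in 76.7% of the lower and 63.4% of the higher genes, against 56.0% of all tested genes. With all 12 control libraries the median POS minus NEG difference was −0.32 for the genes lower in Arg and 0.05 for those higher, on the log2 scale, where all tested genes had −0.06. Without NEG_2 and POS_4 these medians were −0.42, 0.16 and −0.03.

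**Figure D5:**
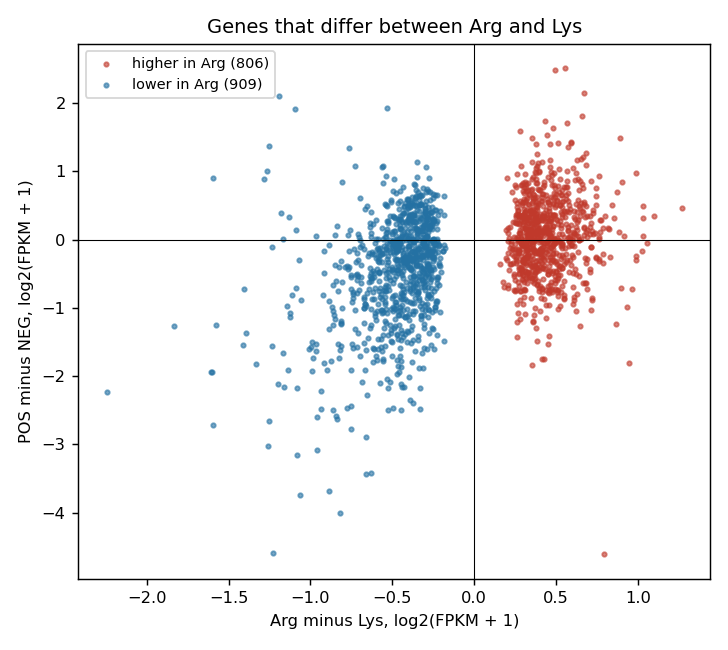
Difference between POS and NEG (6 libraries each) against the difference between Arg and Lys (5 libraries each), both in mean log2(FPKM + 1), for the 1715 genes that differed between Arg and Lys. Of the blue points (lower in Arg) 639 of 909 lie below 0 on the vertical axis, while the red points (higher in Arg) are divided 437 above and 369 below.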

How the data were processed

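RNA-seq FPKM of 72 BMEC libraries were used. The authors trimmed, mapped and counted the reads and deposited FPKM; their processing notes list HISAT2 (2.0.5), StringTie (1.3.3b) and featureCounts (1.5.0-p3), while the paper names cufflinks and htseq-count. No source used here gives the genome build. Whole reads were recovered from the deposited FPKM within 0.001 for 100.0% of values, and the library factors were proportional to median-of-ratios factors, so the FPKM are already scaled between libraries. PCR copies were not marked, so reads are not independent molecules.

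Arg and Lys were compared on log2(FPKM + 1) by limma (3.58.1, R 4.3.3), with the prior variance following the level. The pseudocount of 1 understates changes of low genes. Tested were the 12121 genes whose FPKM averaged 1 or more across all libraries. Only Arg and Lys libraries entered the fit. Library measures were compared by exact permutation in scipy (1.17.1), with Python (3.11.15), numpy (2.4.6), pandas (2.3.3) and matplotlib (3.10.9). The fits were tested on simulated data. Members, lists and tests were chosen with earlier results of these data known. Alternatives were all 12 libraries, single libraries left out, sample weights, a pseudocount of 0.1, other filters and scalings, a replicate block, a fit of all 12 treatments and voom.

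None of the identifiers (0) were found among 37063 rows of the bovine reference table, so planned gene lists, markers and sequences were not analysed here. By the rule for that case, the 2 largest differences in each direction were named, under the conditions given with them.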

Additional observations from a re-analysis of the deposited data

Results flagged for a closer look

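Dixon's test was applied to the highest and the lowest library of 24 groups of 6, and 10 values stood apart, where chance gives about 5% of groups. That rate is no fair reference here. Most of the values are of Arg_4 or Lys_1, which were left out with earlier results of these data known. The named genes were also chosen for ranges that did not overlap without Arg_4 and Lys_1. Measures of a library are not independent of each other. Arg_4 was the lowest of Arg in reads on genes (12803111, the next at 16487776), in genes above 0 (11838), in mean r² with its replicates (0.644, the next at 0.881) and in the FPKM of ENSBTAG00000011645 (38.2, the next at 67.9). Lys_1 was the lowest of Lys in mean r² with its replicates (0.938, the next at 0.961) and the highest in the FPKM of ENSBTAG00000027213 (31.7, the next at 8.88) and of ENSBTAG00000014127 (60.2, the next at 46.4). Lys_6 was the highest of Lys in the share of FPKM held by the 100 highest genes (30.4%, the next at 29.9%). NEG_2 was the highest of NEG in ENSBTAG00000011645 (71.1, the next at 44.7), and POS_4 the highest of POS in ENSBTAG00000027213 (18.1, the next at 7.40). Arg_1 and Arg_2 were not found in this way, since the test looks at 1 library at a time.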

How the results depend on the processing

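The number of genes with an adjusted p under 0.05 was 1715. It was 390 with all 12 libraries, 345 with Lys_1 alone left out, 5191 with sample weights on all 12 libraries, 691 in 1 fit of all 12 treatments, 4651 without Arg_1 and Arg_2, and 4829 without Arg_3, Arg_5 and Arg_6. With single libraries left out it ran from 1110 to 1952. With the replicate number as a block it was 332 in the main libraries and 106 with all 12. Deviations of same-numbered Arg and Lys libraries from their group means had correlations of −0.0731, 0.307, 0.126 and −0.283 for replicates 2, 3, 5 and 6. These values are few and mixed, so they cannot tell whether the numbers pair the libraries. No label says what the numbers mark. The number of DEG (60) was 115 with a pseudocount of 0.1, 122 with voom and 193 without Arg_3, Arg_5 and Arg_6, and ran from 59 to 76 with single libraries left out. With all 12 libraries NEG lay between Arg and Lys in 283 and POS on the Arg side in 298 of 390 genes (72.6% and 76.4%), the difference in the share of the 100 highest genes was 0.949 percentage points (exact permutation test, p = 0.184 unadjusted, against 0.0397 in the main libraries, where the adjusted p of 0.119 did not pass either), and the variance between Arg and Lys was 12.1% of the total. The other 15 and 22 alternatives for the 2 counts kept them within 1.5 times. ENSBTAG00000011645, ENSBTAG00000014127 and ENSBTAG00000010069 kept direction and call under each of 25 alternatives, and ENSBTAG00000027213 lost its call in 12. Cause was not tested for any of these changes. The named genes kept their sign under the alternatives run, while the majority of calls, 806 higher and 909 lower in Arg, turned to 1154 and 693 with total reads scaling, 2946 and 2245 with sample weights, and 2659 and 1992 without Arg_1 and Arg_2. The DEG rest on medians of 104.5 (higher) and 116 (lower) reads per library.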
